A study of Mus musculus with 9 samples.

Results

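Among the cells isolated from these mouse livers, 270 of 8527 were T cells that held transcripts of Cd8b1, the beta chain of the CD8 co-receptor, together with transcripts of Nkg7, a protein of cytotoxic granules, or Ccl5, a chemokine released by cytotoxic lymphocytes, counted jointly. A cell entered the set when it had at least 200 detected genes, at least 1 unique molecular identifier (UMI, 1 captured RNA molecule) of Cd3d, Cd3e and Cd3g combined, at least 1 UMI of Cd8b1, at least 3 UMIs of Nkg7 and Ccl5 combined, no UMI of the B cell gene Cd79a and under 5 UMIs of the macrophage genes C1qa, C1qb and C1qc combined. Of 2123 cells that met the T cell criteria, 423 had a Cd8b1 UMI, and the 270 members were those with enough Nkg7 and Ccl5. The members were thus chosen by these expression values, and the high Nkg7, Ccl5, Cd8b1 and Cd3 levels of the set are a property of the rule. The set was named for effector and memory CD8 T cells, a name that held only for a portion of it, as described below.

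All mice were C57BL/6 and carried ROSA26-rtTA-IRES-EGFP, a doxycycline-dependent transactivator. According to the study's methods an Alb-Cre driver placed the induction in hepatocytes, and no value here shows whether the transgene was active in T cells. WT mice had no YAP transgene and ate doxycycline food for 7 days (2 libraries). YAP3d mice carried tetYAP, a doxycycline-inducible active YAP, and were fed for 3 days (4 libraries), and YAP7d mice carried tetYAP and were fed for 7 days (3 libraries). Each library was made from 1 mouse, and whole-liver cells freed with collagenase were measured by droplet-based 3' single-cell RNA-seq. WT and YAP3d mice therefore differed both in the transgene and in the length of feeding, which cannot be told apart, whereas WT and YAP7d mice were fed for the same time. Ages were not given in the sources used here.

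CD8 T cells recognise peptides on MHC class I. Naive and central memory cells recirculate through lymphoid organs by way of the homing receptor CCR7, under transcription factors such as TCF7, LEF1 and KLF2. Effector and effector memory cells lose this program and carry granzymes, perforin, interferon gamma and inflammatory chemokines, and those that stay in the liver often bear the receptor CXCR6. Natural killer (NK) cells share much of the cytotoxic machinery but lack a T cell receptor.

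The libraries held 1314878 to 25056881 UMIs over all their deposited cells, and the members summed to between 27524 and 467018 UMIs per library, with medians of 4215.5 to 7630 UMIs per cell. WT replicates 1 and 2 gave 5 and 62 members, YAP3d replicates 1 to 4 gave 4, 34, 5 and 80, and YAP7d replicates 1 to 3 gave 17, 8 and 55. A count of 0 therefore allowed a level of up to 75.7 CPM (counts scaled to a total of 1000000) in WT replicate 1, 109 in YAP3d replicate 1, 73.4 in YAP3d replicate 3 and 86.3 in YAP7d replicate 2, and of 6.42 to 26.5 CPM in the others. YAP3d replicate 1, with 4 members, was left out of the tests on genes. Libraries shared 46 cell barcodes, and 3 members carried one of them. As a gauge of free RNA, Nkg7 and Ccl5 were counted in 1069 B cells, which should lack them. Doublets and low expression of this pair by B cells were not told apart from free RNA. At least 3 UMIs of that pair were found in 0 to 5.82% of B cells in 8 libraries and in 24.3% of them in YAP7d replicate 3, where B cells were also deeper (median 7377 UMIs against 2690 to 3614.5). The pseudogene Gm10709 divided the libraries over all their cells, at 340 to 611 CPM in the 3 YAP7d libraries and YAP3d replicates 1 and 2, and at 3.62 to 11.2 CPM in YAP3d replicates 3 and 4 and both WT libraries, so for YAP7d against WT this division and the groups cannot be told apart.

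Of the lineage genes, Cd8a, the alpha chain of CD8 and not part of the rule, was found in 191 of 270 members (70.7%) against 1.22% of B cells and 0.743% of NK cells. Cd4 was found in 4.81% of members, the NK receptor gene Ncr1 in 2.59%, Klrb1c (NK1.1) in 11.9%, and Zbtb16, the transcription factor of NKT cells, in 3.33%. Removing every member with a UMI of any of these last 4 genes left 222 cells. Gamma-delta and invariant NKT cells could not be fully removed in this way, because no T cell receptor segment was used. Lyz2, a myeloid gene, was found in 67.8% of members and also in 57.9% of B cells, and the summed level of 10 macrophage and Kupffer cell markers in members was 75.7 to 410 CPM in WT, 73.4 to 1325.4 CPM in YAP3d and 291 to 1470.7 CPM in YAP7d libraries. The part of these transcripts in the results was not tested.

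Effector genes were concentrated in the cells with many Nkg7 and Ccl5 UMIs. Of the members, 132 (48.9%) had 3 to 9 UMIs of the pair, 31 had 10 to 19, and 107 (39.6%) had 20 or more. Among the 132 cells with 3 to 9 UMIs, 96.2% held a transcript of Ccr7 or Lef1 and 27.3% held one of the granzymes Gzma, Gzmb or Gzmk. Among the 107 cells with 20 or more, the shares were 36.4% and 80.4%, and among the 74 cells with at least 50 they were 23% and 94.6%. The order held after each cell was thinned to 2000 UMIs, where Ccr7 or Lef1 was found in 78.5% of the 3 to 9 cells and 14.3% of those with 20 or more, and the granzymes in 9.23% and 68.6%. Cells on either side of the threshold held Ccr7 or Lef1 about equally often, and the granzyme share rose and fell around it. With 2 UMIs, just outside, 95.6% of 45 cells held Ccr7 or Lef1 and 22.2% a granzyme, and with 3 UMIs, just inside, 93.8% of 48 cells and 39.6% (2.27% and 15.2% for granzymes after thinning). Further out, at 1 UMI, the granzyme share was 18.5% (10.8% after thinning), and further in, at 5 to 9 UMIs, it was 22.7% (6.06%). B cells, the gauge of free RNA, held a granzyme in 16.2% of cells, or 8.47% after thinning. These ranges were set after the values had been seen and describe the cells without a test.

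**Figure D1:**
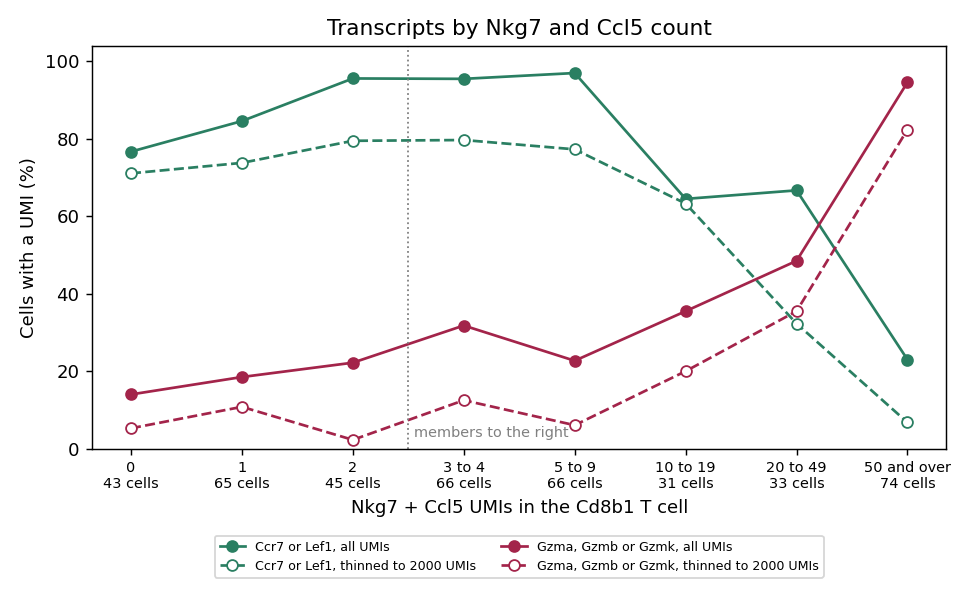
Share of Cd8b1-positive T cells (y axis, % of cells, all libraries pooled) that held a UMI of Ccr7 or Lef1 (green) or of Gzma, Gzmb or Gzmk (red), by the number of Nkg7 and Ccl5 UMIs in the cell (x axis), with all UMIs (filled points) or after thinning to 2000 UMIs (open points). Members lie to the right of the dotted line, and with all UMIs the share with Ccr7 or Lef1 is 96.2% over the cells with 3 to 9 UMIs and 23% at 50 or more, where the granzyme share is 94.6%.

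The members in the 3 to 9 range were set beside the B cells of the same libraries. Members were chosen on Nkg7 and Ccl5 and B cells were not, so higher levels of this pair in members follow from the rule. In the 4 libraries with at least 5 cells in both ranges (WT replicate 2, YAP3d replicate 4, YAP7d replicates 1 and 3), Nkg7 in these members was 731, 626, 771 and 610 CPM against 41.5, 38.7, 8.47 and 58.2 CPM in B cells. Ccl5 was 233, 177, 116 and 265 CPM against 123, 154, 42.4 and 203 CPM. Gzma was 53.2, 36.7, 38.6 and 49.3 CPM against 29, 27.2, 8.47 and 114 CPM, so it was lower in these members than in B cells in YAP7d replicate 3 and higher in the other 3 libraries. In YAP7d replicate 1 it was found in only 11.1% of 9 such members and 3.12% of 32 B cells. Gzmb was 19.9, 30, 0 and 18.5 CPM against 12.4, 13.6, 8.47 and 27 CPM. Gzmk had no UMI in any of the 132 cells, which allows a share of cells with a captured Gzmk UMI of up to 2.27% and sets no limit on the share that express it. The thinned share of cells with a granzyme UMI, pooled over libraries, was 9.23% in members with 3 to 9 UMIs beside 8.47% in B cells. The set as named joined a granzyme-rich population with cells that carried Cd8b1 and the naive and central memory genes, and it is called here by its rule, as members.

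Within libraries, the members with at least 20 UMIs differed from those with 3 to 9 in many genes, described over the same 4 libraries as mean ± SD (n = 4). Of the cytotoxic effectors, 9 of 15 were higher in every library and 1 was lower, against 15.4% higher and 7.83% lower of 7578 genes that reached 10 CPM. Gzmb was 1089.2 ± 240 CPM against 17.1 ± 12.5 and Gzma 859 ± 449 against 44.4 ± 8.07. The cytokine gene Ifng was 490 ± 491 CPM against 2.5 ± 5, and Fasl, the ligand of the death receptor Fas, 131 ± 85.3 against 2.5 ± 5. Xcl1, which attracts cross-presenting dendritic cells, was 515 ± 409 CPM against 15 ± 17.5, and in its highest library, WT replicate 2, 1 cell gave 117 of 176 UMIs. Prf1 (perforin) was low in both, at 17.8 ± 9.9 and 3.33 ± 3.84 CPM. Among the cells with 20 or more UMIs Gzmb stayed within 755 to 1295.2 CPM. Ifng ran from 92.1 to 1145.3 CPM, and in the library at the top, YAP7d replicate 3, 1 cell gave 202 of its 215 UMIs.

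Receptor genes were described in the same way. Of the effector memory and short-lived effector genes 10 of 15 were higher in every library and none was lower, and of the NK receptor genes 9 of 15 were higher. Of the chemokine receptor and egress genes 5 of 11 were higher and 3 lower, and of the cytokine receptors 1 of 12 was higher and 2 lower, so receptors as a whole did not share 1 direction. Cxcr3, which responds to interferon-induced chemokines, was 199 ± 48.3 CPM against 13.9 ± 16. The activating receptor gene Klrk1 (NKG2D) was 239 ± 105 CPM against 12.1 ± 14.8, and the inhibitory receptor gene Klrc1 (NKG2A) 122 ± 50.6 against 2.5 ± 5. Il2rb, a subunit of the receptors for IL-2 and IL-15, was 257 ± 117 CPM against 37.3 ± 22.2. Cxcr6 was 216 ± 121 CPM against 47.9 ± 61.5 and higher in each of the 4 libraries. Klrg1, a marker of short-lived effectors, was 67.7 ± 74.3 CPM and had no UMI in the cells with 3 to 9. Itgae, the integrin CD103 of some resident cells, went the other way, at 2.63 ± 5.26 CPM against 31.6 ± 5.84. Of the 34 proliferation genes 25 were higher in every library, among them Stmn1 at 680 ± 668 CPM against 28.2 ± 8.28 and Top2a at 215 ± 210 against 14.4 ± 5.82. Single cells weighed on both, with 55 of the 92 Stmn1 UMIs of YAP7d replicate 1 and 14 of the 16 Top2a UMIs of YAP3d replicate 4 in 1 cell each.

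Some markers of other lymphocytes were also higher in every library in the members with at least 20 UMIs. They were 2 of 7 NK and innate lymphoid markers (Klrb1c and Fcer1g), 2 of 3 NKT markers (Klrb1c and Cxcr6) and 2 of 4 markers of CD4 and regulatory T cells (Cd40lg and Ctla4), while Ncr1 was 28.3 ± 29.7 CPM against 0, Zbtb16 4.21 ± 5.16 against 2.5 ± 5 and Cd4 11.6 ± 10.4 against 10 ± 20. The part of such cells in the division was not tested.

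The naive and central memory genes formed the mirror image, with 12 of 14 lower in every library and none higher. Ccr7 was 56.5 ± 43.3 CPM in members with at least 20 UMIs against 464 ± 58.3 in those with 3 to 9. Lef1 was 74.6 ± 53.6 CPM against 402 ± 51.1, Tcf7 102 ± 53.8 against 314 ± 80.8 and Il7r, the IL-7 receptor, 77.5 ± 39.2 against 326 ± 75.7. Klf2, a transcription factor of quiescence and recirculation, was 734 ± 416 CPM against 2025.8 ± 546. Cd8a was similar in level, at 474 ± 249 and 348 ± 124 CPM, and higher in 3 of the 4 libraries.

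**Figure D2:**
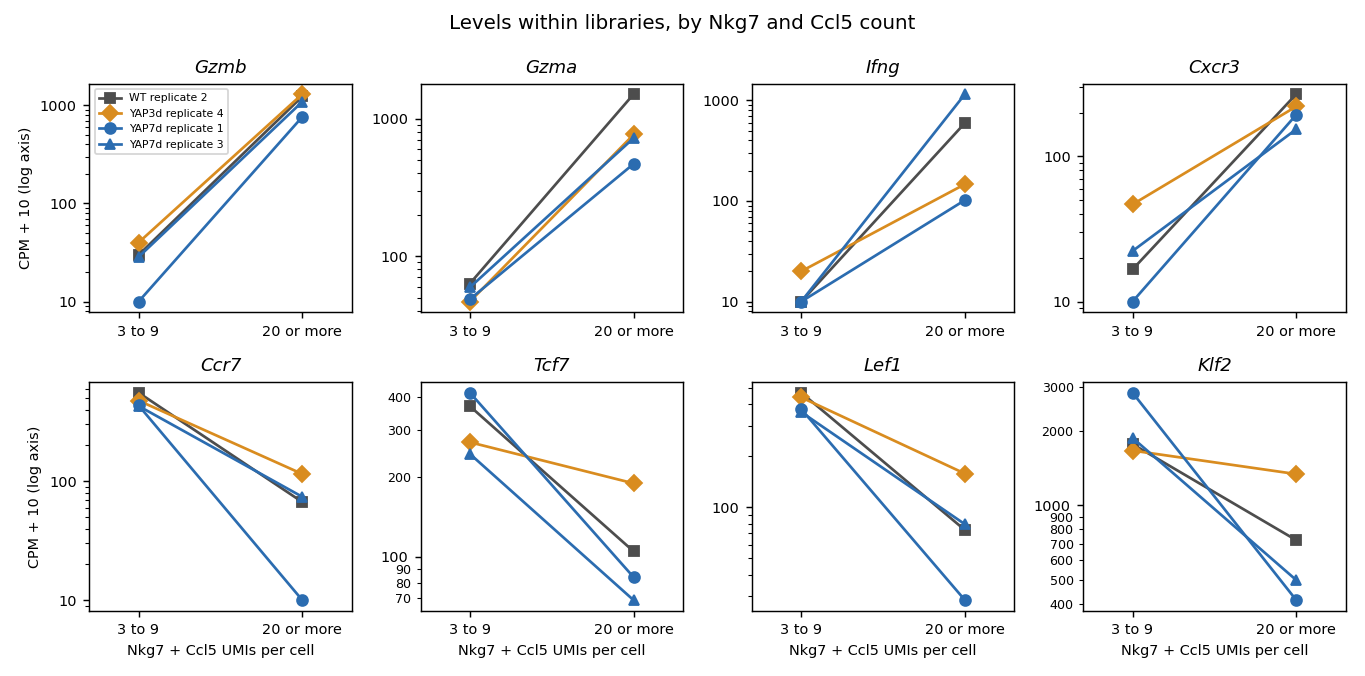
Levels of 8 genes (y axis, CPM + 10, log axis) in members with 3 to 9 and with 20 or more UMIs of Nkg7 and Ccl5 (x axis), with 1 line for each of 4 libraries. Gzmb, Gzma, Ifng and Cxcr3 are higher and Ccr7, Tcf7, Lef1 and Klf2 lower on the right in each of the 4 libraries, and Ifng spans 92.1 to 1145.3 CPM there, with 202 of the 215 UMIs of its highest library in 1 cell.

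Transcripts of both kinds were found in some single members. Ccr7 or Lef1 was found in 186 of the 270 members and a granzyme in 133, and 65 members (24.1%) held both, 121 Ccr7 or Lef1 alone, 68 a granzyme alone and 16 neither. YAP7d replicate 3, where 47.3% of B cells held a Gzma UMI, gave 20 of the 65. YAP3d replicate 4 gave 20 and WT replicate 2 gave 18, and there 9.93 and 10.9% of B cells held one. The part of free RNA in these cells was not tested. YAP3d replicate 2 stood apart. Only 8 of its 34 members (23.5%) held Ccr7 or Lef1, against 58.8 to 87.5% in the other 8 libraries, and 27 held a granzyme. In this library 22 members (64.7%) held Cxcr6 and 1 of these 22 also held Ccr7 or Lef1. Gzmk was found in 64.7% of its members, Pdcd1 (PD-1) in 52.9%, Lag3 in 55.9% and the transcription factor gene Tox in 58.8%. Other inhibitory receptor genes were rare there, with Havcr2 in 5 and Ctla4 and Tigit in 2 each of the 34 members.

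The share of members was compared between the groups to ask whether hepatocyte YAP induction went with more of these cells. Members made up 0.96 and 4.38% of all cells in the WT libraries, 1.18 to 7.69% in YAP3d and 1.74 to 3% in YAP7d. Means were 2.67 ± 2.42% (SD, n = 2), 3.36 ± 3.02% (n = 4) and 2.52 ± 0.688% (n = 3), and the groups overlapped. Among T cells, members made up 4.2 and 12.5% in WT, 4.08, 24.3, 4.27 and 11.2% in YAP3d, and 14, 12.9 and 21.6% in YAP7d libraries. Each YAP7d value lay above each WT value, by 7.82 points on average, with p = 0.2 in an exact two-sided permutation test over libraries, and the values of YAP3d reached beyond both other groups at either end.

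Among Cd8b1-positive T cells the share of members was 55.6 and 61.4% in WT, 57.1, 82.9, 41.7 and 58.4% in YAP3d, and 73.9, 66.7 and 67.9% in YAP7d libraries. The YAP7d libraries lay above the WT libraries, 69.5 ± 3.88% (n = 3) against 58.5 ± 4.12% (n = 2), and YAP3d lay on both sides at 60 ± 17.1% (n = 4). After cells were thinned to 2000 UMIs the differences were 18.9 points for YAP7d minus WT, 18.2 for YAP3d minus WT and 0.753 for YAP7d minus YAP3d (exact permutation p = 0.3, 0.467 and 1). With all UMIs the difference between YAP7d and WT was 11 points with an exact permutation p of 0.1, which is the smallest value that 3 against 2 libraries can give, and an adjusted p of 1 over 12 tests of shares. With the threshold at 2 or at 5 UMIs the exact p was 0.3. Exact binomial 95% intervals, which cover counting error only, ran from 51.2 to 70.9% in WT replicate 2 and from 56.6 to 77.8% in YAP7d replicate 3, so the intervals of these deepest libraries of the 2 groups overlapped. Comparisons with YAP3d had smallest possible values of 0.0667 and 0.0286 and gave exact permutation p-values of 0.4 to 0.933 for shares of T cells and of Cd8b1-positive T cells. None of the 12 tests passed. In the deepest library of YAP7d, replicate 3, 24.3% of B cells also had at least 3 UMIs of Nkg7 and Ccl5, and the part of free RNA in its share of members was not tested.

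The share of members with at least 20 UMIs of Nkg7 and Ccl5, a description since the rule used these genes, was 20 and 35.5% in WT, 50, 85.3, 60 and 20% in YAP3d, and 35.3, 25 and 47.3% in YAP7d libraries. The highest and one of the 2 lowest values were those of YAP3d replicates 2 and 4, livers of the same group. The median member held 207 UMIs of the pair in the former and 6 in the latter.

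**Figure D3:**
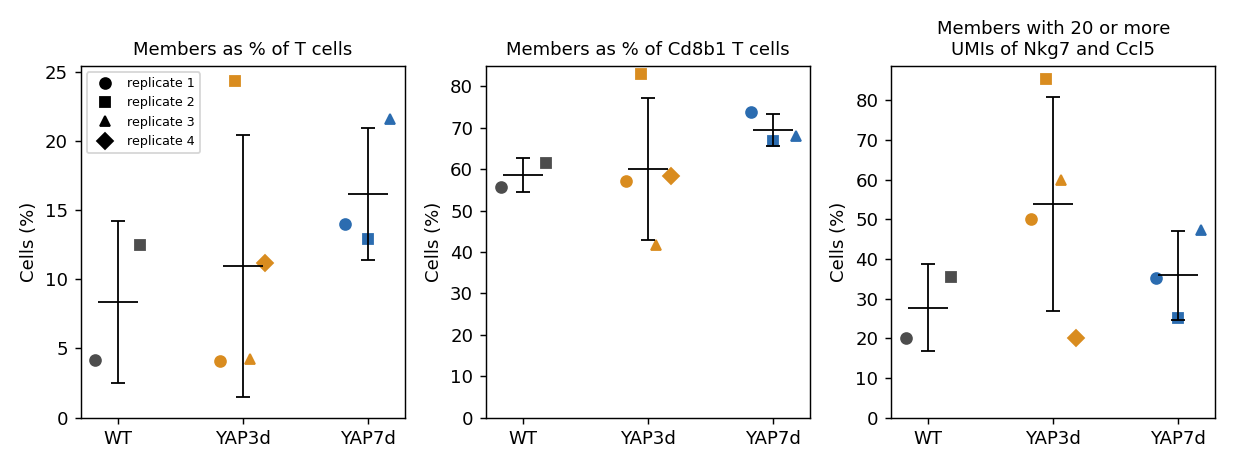
Percentage of T cells that were members, percentage of Cd8b1-positive T cells that were members, and percentage of members with at least 20 UMIs of Nkg7 and Ccl5 (y axes, %), by group (x axis), with 1 point per library, horizontal lines for means and bars for SD. In the middle panel the YAP7d libraries lie at 66.7 to 73.9% and the WT libraries at 55.6 and 61.4%, whereas YAP3d spans 41.7 to 82.9%.

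Expression in the members was next compared between the groups, on counts summed per library. No gene of 2616 was called in YAP7d against WT, in YAP3d against WT or in YAP7d against YAP3d by edgeR's quasi-likelihood test at an adjusted p of 0.05 (0% of genes in each comparison). At an unadjusted p under 0.05 there were 53, 29 and 87 genes (2.03, 1.11 and 3.33%), and DESeq2 called 1, 0 and 0 genes, the 1 being Gm10709. The summed level of 10 sinusoidal endothelial markers in members was 202 to 503 CPM in WT, 42 to 713 CPM in YAP3d and 26.5 to 57.5 CPM in YAP7d libraries, with Ptprb, Stab2, Clec4g and Oit3 at 0 in YAP7d, and that of 7 NK cell markers was 126 to 292, 72.7 to 1314.7 and 238 to 1028.7 CPM. Their part in the comparisons was not tested. The values by library are given below for the genes of each role.

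Among granzymes, Gzma was 101 and 708 CPM in WT, 0, 11655.7, 930 and 186 CPM in YAP3d replicates 1 to 4, and 238, 28.8 and 387 CPM in YAP7d. The single high library was YAP3d replicate 2, and the other 3 of its group overlapped both other groups. Its 2219 Gzma UMIs came from 23 cells, of which the richest gave 11.4%. In YAP3d replicate 3 all 38 Gzma UMIs came from 1 cell, and in YAP3d replicate 4 and YAP7d replicates 1 and 3 a single cell gave 67.8, 81.5 and 60.6% of them. The log2 fold change of Gzma was 3.09 ± 1.27 (SE) for YAP3d against WT (edgeR, adjusted p = 1) and -3.83 ± 1.13 for YAP7d against YAP3d (adjusted p = 0.999). Without YAP3d replicate 2 these became 0.00 and -0.76. After cells were thinned to 2000 UMIs the fold changes were 2.77 and -4.14. With at least 20 UMIs of Nkg7 and Ccl5 that of YAP7d against YAP3d was -3.49. In these fits only WT replicate 2 had at least 5 members, so WT was 1 library and no p-values are given. For YAP7d against WT the log2 fold change of Gzma was -0.75 ± 1.18 (edgeR, adjusted p = 0.999), and 1.59 without WT replicate 2.

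Gzmb, which was spread over all groups, was 959 and 562 CPM in WT, 0, 615, 2128.5 and 289 CPM in YAP3d, and 388, 115 and 562 CPM in YAP7d. The YAP7d libraries were all at or below the WT libraries, with a log2 fold change of -0.76 ± 0.648 (edgeR, adjusted p = 0.999), and YAP3d covered the whole range. All 38 Gzmb UMIs of WT replicate 1 came from 1 cell, as did 84 of the 87 in YAP3d replicate 3. Gzmk was 0 and 45 CPM in WT, 0, 378, 269 and 2.14 CPM in YAP3d, and 0, 144 and 19.1 CPM in YAP7d, so YAP3d replicates 2 and 3 were the highest and the groups overlapped. The 72 Gzmk UMIs of replicate 2 came from 22 cells, whereas the 11 of replicate 3 came from 1 cell. Prf1 stayed at or below 22.5 CPM in every library, with 0 in 4 of the 9.

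Cytokine and chemokine genes varied between libraries of 1 group as much as between groups. Ifng was 101 and 287 CPM in WT, 145, 99.8, 48.9 and 40.7 CPM in YAP3d, and 44.1, 0 and 587 CPM in YAP7d. The 3 tested YAP3d libraries lay below both WT libraries (log2 fold change -1.82 ± 0.947, edgeR adjusted p = 1), while replicate 1, which was not tested, lay between them, and YAP7d overlapped both groups (2.22 ± 0.865 against YAP3d, adjusted p = 0.999). The highest value, in YAP7d replicate 3, came almost wholly from 1 cell, which gave 202 of 215 Ifng UMIs. Ccl3 and Ccl4 encode inflammatory chemokines and lie beside each other on chromosome 11, with annotated spans that overlap in GRCm38.p6 (83647843 to 83649378 and 83648624 to 83664683), so reads of the 2 genes may not be fully separated. Ccl3 was 0 and 73.1 CPM in WT, 0, 1087.3, 48.9 and 141 CPM in YAP3d, and 44.1, 86.3 and 136 CPM in YAP7d, and YAP3d replicate 2 alone was far above the rest. Its log2 fold change was 2.88 ± 1 for YAP3d against WT (edgeR, adjusted p = 1) and -2.01 ± 0.812 for YAP7d against YAP3d (adjusted p = 0.999), and 1.10 and -0.24 without that library. Xcl1 was 0 and 495 CPM in WT, 291, 5.25, 73.4 and 124 CPM in YAP3d, and 53, 0 and 210 CPM in YAP7d, and the groups overlapped.

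Cxcr6, the receptor that retains lymphocytes in the liver sinusoids, was 75.7 and 174 CPM in WT, 145, 404, 245 and 178 CPM in YAP3d, and 97.1, 0 and 46.4 CPM in YAP7d. All YAP7d libraries lay below all YAP3d libraries, with a log2 fold change of -2.14 ± 0.518 (edgeR, unadjusted p from the same fit 0.00106, adjusted p = 0.999), and -1.78 without YAP3d replicate 2. The 3 tested YAP3d libraries also lay above both WT libraries (0.88 ± 0.523, adjusted p = 1). Against WT the fold change of YAP7d was -1.26 ± 0.58 (edgeR, adjusted p = 0.999) and the groups overlapped. None of the 3 comparisons passed the threshold over all genes.

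Of the inhibitory receptor genes and their program, Pdcd1, Lag3 and Tox were highest in YAP3d replicate 2, whereas Ctla4, Havcr2 and Tigit stood at 15.8, 26.3 and 10.5 CPM there, each below at least 1 other library. Pdcd1 was 25.2 and 5.62 CPM in WT, 0, 326, 24.5 and 6.42 CPM in YAP3d, and 26.5, 0 and 10.9 CPM in YAP7d. Lag3 was 0 and 8.43 CPM in WT, 0, 194, 147 and 27.8 CPM in YAP3d, and 8.83, 0 and 13.6 CPM in YAP7d. In YAP3d replicate 3 all 6 Lag3 UMIs came from 1 cell, and in replicate 4 1 cell gave 7 of 13. The 3 tested YAP3d libraries lay above the others, with log2 fold changes of 3.72 ± 1.05 against WT (edgeR, adjusted p = 1) and of -3.06 ± 0.851 for YAP7d against YAP3d (adjusted p = 0.999). Tox, whose product sustains the exhausted state in chronic stimulation, was 25.2 and 11.2 CPM in WT, 36.3, 326, 48.9 and 51.4 CPM in YAP3d, and 35.3, 86.3 and 38.2 CPM in YAP7d. Both YAP3d and YAP7d lay above WT, with log2 fold changes of 3.39 ± 0.942 (edgeR, adjusted p = 1) and 1.76 ± 1.05 (adjusted p = 0.999). Without YAP3d replicate 2, Lag3 and Tox were too low to be tested. Of the 12 exhaustion and inhibitory receptor genes 4 could be tested and none was called. Lag3 and Tox were 2 of the 4 and could be tested only through YAP3d replicate 2, so no median of the list is given.

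Of the genes of naive and central memory cells, Ccr7, Tcf7 and Lef1 overlapped between each pair of groups that was tested. Ccr7 was 454 and 309 CPM in WT, 145, 205, 367 and 407 CPM in YAP3d, and 194, 374 and 229 CPM in YAP7d. Tcf7 was 378 and 225 CPM in WT, 145, 137, 171 and 229 CPM in YAP3d, and 274, 86.3 and 139 CPM in YAP7d. Lef1 was 202 and 250 CPM in WT, 109, 110, 73.4 and 364 CPM in YAP3d, and 177, 403 and 202 CPM in YAP7d. Among the others, Il7r averaged 296 CPM in YAP7d and 152 CPM in the 3 tested YAP3d libraries, which did not overlap. YAP3d replicate 1, not tested, held 6 Il7r UMIs of 27524 and so lay above YAP7d replicate 3, with 73 of 366487. S1pr1, the receptor for lymphoid egress, did not overlap between YAP7d and WT (means of 85.1 and 138 CPM). Both had an edgeR adjusted p of 0.999, and the share of all genes without overlap is not given. Of the 14 genes of this list 13 were tested, with a median log2 fold change of -0.12 for YAP7d against WT and -0.09 for YAP3d against WT beside 0.01 over all genes in both, and none was called. Of the cytotoxic effectors 10 of 15 were tested; for YAP7d against WT 5 lay above and 5 below 0 (median -0.03), and for YAP3d against WT 7 lay above and 3 below (median 0.16), again with none called. Of the 34 proliferation genes 24 were tested, with a median of 0.15 for YAP7d against WT and none called, and Mki67 was highest in YAP3d replicate 3 and YAP7d replicate 1, at 220 and 212 CPM, against 0 to 184 CPM elsewhere, and all 9 UMIs of the former came from 1 cell.

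**Figure D4:**
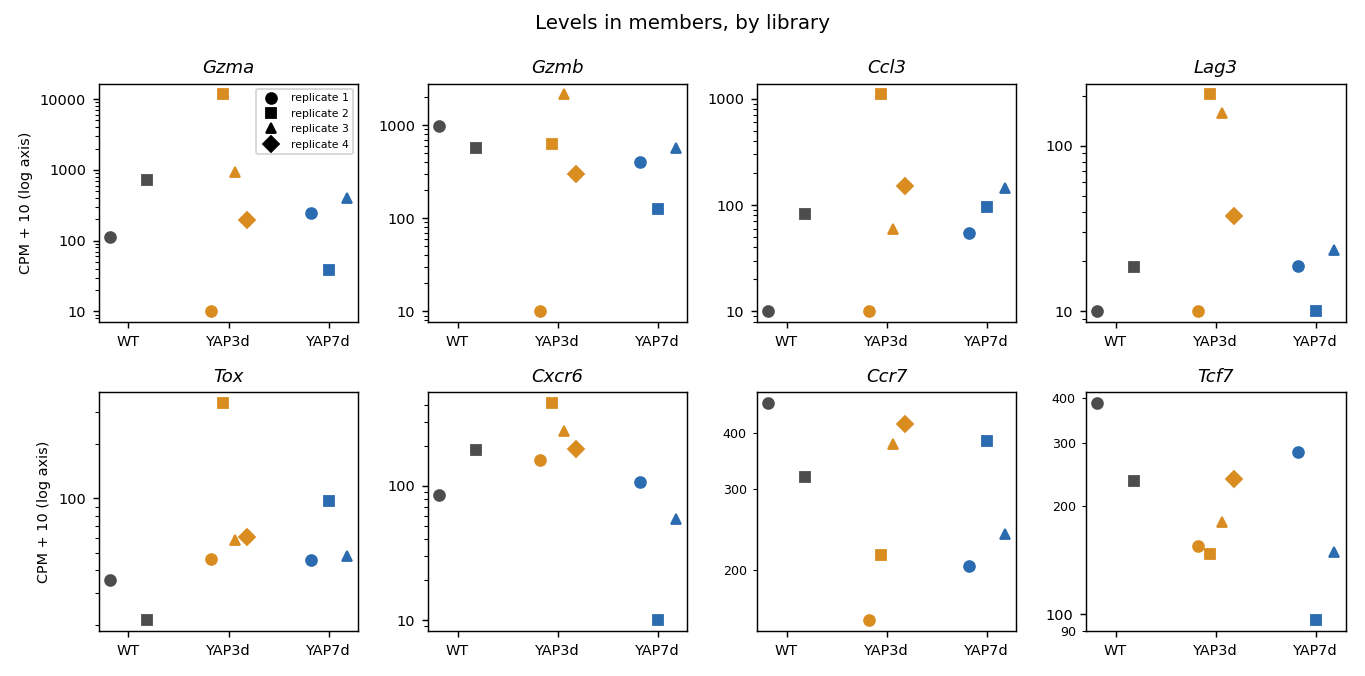
Levels of 8 genes in the members (y axes, CPM + 10, log axis) by group (x axis), with 1 point per library. Gzma, Ccl3, Lag3 and Tox are led by YAP3d replicate 2 (11655.7, 1087.3, 194 and 326 CPM), Cxcr6 is lower in the 3 YAP7d than in the 4 YAP3d libraries, and Ccr7 and Tcf7 overlap between the groups.

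To describe what else changed along the threshold, members were set beside the 43 Cd8b1-positive T cells that had no UMI of Nkg7 or Ccl5. At least 5 of these cells were present in 3 libraries (WT replicate 2, YAP3d replicate 4 and YAP7d replicate 3). Since the rule drew this division through the same cells, the calls are a description and no p-values are given. edgeR placed 14 genes higher in members (0.562% of 2493) and 18 lower (0.722%), with 300 genes at an unadjusted p under 0.05. These counts moved with the processing, to 65 higher and 147 lower without YAP7d replicate 3, 79 and 53 after thinning, and 5 and 2 without the library block. Mean levels in members against the other cells (± SD, n = 3) were 471 ± 158 against 14.6 ± 13.8 CPM for Gzmb, 427 ± 263 against 11 ± 19 for Gzma, 276 ± 194 against 5.5 ± 9.52 for Xcl1 and 142 ± 31.2 against 5.5 ± 9.52 for Il2rb. S100a4 and S100a6, calcium-binding proteins common in effector and memory cells, were 336 ± 94.8 against 23.8 ± 28.1 CPM and 692 ± 309 against 143 ± 44.6 CPM. The list of called genes also held Ctsw, a cathepsin of cytotoxic lymphocytes, the histone gene Hist1h2ap, AW112010, Dapl1 and the T cell genes Lck, Cd2, Thy1 and Hcst. The log2 fold change of Dapl1 was 2.03, and -0.51 after cells were thinned to 2000 UMIs.

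Ccr7 and Klf2 were close in level in the 2 sets. Ccr7 was 315 ± 89 CPM in members and 347 ± 112 CPM in the cells without Nkg7 and Ccl5, and Klf2 1333.2 ± 203 and 1452.0 ± 130 CPM. Of the 13 tested naive and central memory genes 3 lay above and 10 below 0 (median log2 fold change -0.14). The genes called lower in members included Dnase1l3 (67.3 ± 53.7 against 758 ± 857 CPM), Aqp1 (77.5 ± 72.2 against 596 ± 539 CPM) and the hepatocyte-enriched Apoc1 (47.7 ± 44 against 510 ± 761 CPM). Of the 7 tested markers of sinusoidal endothelium 5 were called lower (Clec4g, Kdr, Egfl7, Fcgr2b and Dnase1l3), with a median log2 fold change of -3.08 over the 7. The set without Nkg7 and Ccl5 was also shallower, at a median of 4151 UMIs per cell against 5647.5 in members, and the part of endothelial RNA in this comparison was not tested.

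Members were finally compared with the other cytotoxic lymphocytes of the same livers, 269 NK cells taken as cells without Cd3 or Cd8b1 UMIs that had at least 1 UMI of Ncr1 or Klrb1c and at least 3 of Nkg7 and Ccl5. The genes of these gates were left out of the calls. In 8 libraries 241 genes were higher in members (13.5% of 1779) and 183 lower (10.3%) at an adjusted p of 0.05 in edgeR with the library as a block. The higher genes were led by Dapl1, Cd8a and Ccr7, and the lower ones by the NK receptor gene Klri2, Cma1 and the Ly49 gene Klra8 (log2 fold changes of -7.49, -6.68 and -5.51).

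T cell genes were higher in members, which follows in part from the gates. Cd8a was 501 ± 221 against 4.66 ± 11.3 CPM (n = 8), with a log2 fold change of 7.34 ± 0.38, and was higher in 8 of 8 libraries. No p-value is given for Cd8a, since the gates were cut on Cd8b1, the other chain of CD8. Bcl11b, a transcription factor of T cell commitment, was higher by a log2 value of 4.89 ± 0.449 (edgeR, adjusted p = 2.5e-07) and Lat, the adaptor of T cell receptor signalling, by 2.60 ± 0.236 (adjusted p = 2.3e-07). Homing and memory genes were higher too. Ccr7 was 317 ± 98.6 against 7.65 ± 15.5 CPM, Lef1 223 ± 114 against 32.5 ± 22.5, Tcf7 205 ± 92.6 against 42.5 ± 18.5 and Il7r 227 ± 110 against 36.9 ± 64.6, with edgeR adjusted p-values of 4.4e-09, 8.9e-07, 1.3e-07 and 1.6e-06. Of the 10 tested naive and central memory genes 8 were higher and 1, Txk, was lower. Fewer of them could be tested in the members with many Nkg7 and Ccl5 UMIs described below. Of 5 tested type I interferon response genes 4 were higher.

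The cytotoxic genes were lower in members than in NK cells. Of 11 tested cytotoxic effectors 7 were lower and none was higher, and of the effector chemokines 3 of 3 were lower. Gzma was 1779.4 ± 4002.6 against 8841.2 ± 1578.4 CPM (log2 fold change -3.92 ± 0.533, edgeR adjusted p = 1.8e-05), lower in 7 of 8 libraries, and -4.47 without YAP3d replicate 2, where members reached 11655.7 CPM against 9790.2 CPM in NK cells. Prf1 was 7.71 ± 8.15 against 222 ± 113 CPM, a log2 fold change of -3.50 ± 0.341 (edgeR, adjusted p = 5.5e-07) and lower in 8 of 8. Gzmb differed less, at 702 ± 628 against 1594.2 ± 589 CPM (log2 fold change -1.20 ± 0.302, adjusted p = 0.00617), and Ifng did not pass the test at 151 ± 196 against 402 ± 153 CPM (adjusted p = 0.0751). The log2 fold changes of the chemokine genes Ccl3, Ccl4 and Xcl1 were -3.57, -2.94 and -3.28 (edgeR, adjusted p = 6.7e-07, 2.5e-05 and 3.5e-05). Those of the transcription factor genes Tbx21 (T-bet) and Eomes were -1.98 and -2.04 (adjusted p = 1.5e-05 and 4.5e-04).

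All 10 tested NK receptor genes were lower in members, which follows in part from the gates, since the NK cells had to hold Ncr1 or Klrb1c. Klra8 (Ly49H) was 6.51 ± 17.3 against 624 ± 208 CPM and Klri2 0.341 ± 0.965 against 291 ± 115 CPM, both lower in 8 of 8 libraries (edgeR, adjusted p = 3.3e-08 and 1.4e-10). The signalling adaptors of NK receptors Fcer1g and Tyrobp were 167 ± 178 against 2777.5 ± 350 CPM and 208 ± 238 against 2854.7 ± 344 CPM. The receptors shared with effector T cells differed less, with Klrk1 lower by a log2 value of -2.76 ± 0.247, Klrc1 by -2.57 ± 0.175 and Klrd1 by -1.62 ± 0.201.

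The comparison was repeated with the 107 members that had at least 20 UMIs of Nkg7 and Ccl5, a set chosen after its values were seen, in the 5 libraries with at least 5 cells in both sets. Higher genes numbered 68 (3.29% of 2067) and lower genes 92 (4.45%). Cd8a was higher by a log2 value of 8.11 ± 0.444, which follows in part from the gates. The p-values below are from edgeR. The chemokine receptor genes Cxcr3 and Cxcr6 were higher in these members than in NK cells, at 183 ± 56 against 75.6 ± 20.5 CPM (log2 fold change 1.37 ± 0.239, adjusted p = 0.00228) and 265 ± 153 against 70.7 ± 73.3 CPM (2.22 ± 0.336, adjusted p = 7.9e-04), each in 5 of 5 libraries. Over all members Cxcr6 had differed by 1.35 ± 0.358 (adjusted p = 0.00939), but it was higher in only 4 of 8 libraries and lower in 3. That call was lost without YAP3d replicate 2 (0.97, adjusted p = 0.0779), with the strict gate that removes cells with Cd4, Zbtb16, Ncr1 or Klrb1c (0.97, adjusted p = 0.188) and without the library block (1.59, adjusted p = 0.0881). Of the naive and central memory genes only 5 could be tested in these members, and none was called higher. Not tested were Ccr7, Lef1, Tcf7 and Il7r, which pooled over libraries stood at 73, 65.9, 81.4 and 88.4 CPM. In NK cells they stood at 6.7, 31.7, 37.1 and 19.5 CPM. Cd27 was 190 ± 71 against 116 ± 45.5 CPM (0.91 ± 0.265, edgeR adjusted p = 0.0528) and higher in 4 of 5 libraries. Txk was lower (-1.08 ± 0.197, adjusted p = 0.00309), and Klf2 was 658 ± 398 against 1114.1 ± 351 CPM (-0.78 ± 0.245, adjusted p = 0.0716), with a median of -0.68 over the 5. Ly6c2, a surface antigen of memory CD8 T cells, was 1156.7 ± 729 against 240 ± 71.2 CPM (2.15 ± 0.441, adjusted p = 0.00741), and higher in 4 of 5.

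For the cytotoxic genes, the members were now chosen for high Nkg7 and Ccl5 while the NK cells kept the threshold of 3 UMIs, so the change from the values over all members is in part set by that choice. Gzmb was 1014.2 ± 267 against 1451.5 ± 451 CPM (log2 fold change -0.41 ± 0.197, edgeR adjusted p = 0.251), Fasl 142 ± 77.5 against 213 ± 67.4 CPM (-0.46 ± 0.23, adjusted p = 0.274) and Ifng 416 ± 457 against 386 ± 171 CPM (-0.12 ± 0.553, adjusted p = 0.963), with 1 cell behind most of the Ifng of YAP7d replicate 3. These 3 did not pass the test, which does not show that the levels are equal. Prf1 passed the test as lower at 17.9 ± 8.58 against 160 ± 87.4 CPM (-2.90 ± 0.369, adjusted p = 2.3e-04), and Gzma at 3393.9 ± 5681.8 against 8362.5 ± 1375.2 CPM (-2.51 ± 0.507, adjusted p = 0.00697). Gzmk, a granzyme of memory CD8 T cells, was found in 36.4% of these members and 1.86% of NK cells. Pdcd1 was found in 24.3% of them and in 0 of 269 NK cells, which allows a share of cells with a captured UMI of up to 1.12%. YAP3d replicate 2 held 22 of the 39 members with Gzmk and 18 of the 26 with Pdcd1, and in the 78 members of the other libraries the shares were 21.8 and 10.3%.

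**Figure D5:**
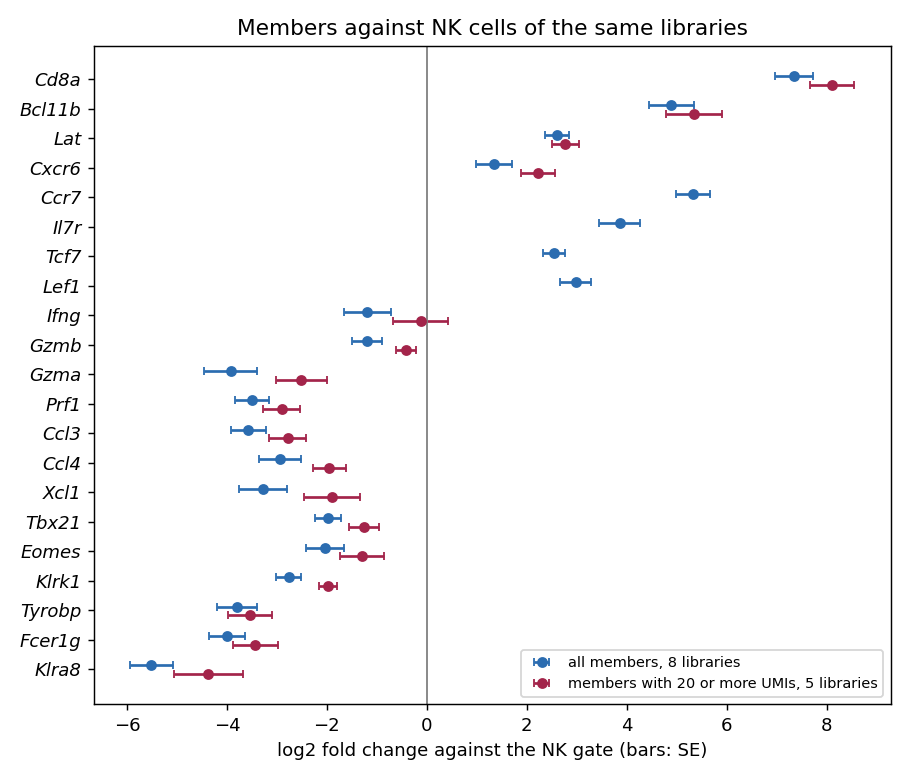
Log2 fold change against the NK cells of the same libraries (x axis, bars show SE) for 21 genes (y axis), for all members (blue, 8 libraries) and for members with at least 20 UMIs of Nkg7 and Ccl5 (red, 5 libraries). Cd8a is at 7.34 and 8.11, Prf1 at -3.50 and -2.90 and Klra8 at -5.51 in all members, whereas Gzmb moves from -1.20 to -0.41, and genes without a red point were too low to be tested.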

How the data were processed

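Each of 9 mice gave 1 droplet-based library of liver cells. Per the labels and the study's methods the authors counted reads with Cell Ranger on mm10 and analysed them with Seurat 2. By the study's methods whole-liver libraries, which these are by their titles, were made with the v2 kit. The deposited table holds raw counts of UMIs per gene and cell as the authors made them, with the library in each cell's name. Of 27998 genes 9082 had 0 counts, and 22794 symbols matched RefSeq GRCm38.p6, used only for names and positions.

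Cells with at least 200 genes were kept (8527 of 8562), with no mitochondrial filter. Gates were cut on UMIs as described above, and B cells had Cd79a of at least 2 and no Cd3 UMI. T cell receptor constant and variable segments were not used here, so the strict gate rested on Cd4, Zbtb16, Ncr1 and Klrb1c and could not fully remove gamma-delta or invariant NKT cells. Scrublet called 60 cells (0.704%) and 2 members, which were kept. Counts were summed per library and gate, with at least 5 cells, filtered with filterByExpr, scaled with TMM and tested with edgeR 4.0.16 (quasi-likelihood, Benjamini-Hochberg over all genes, threshold 0.05) in R 4.3.3. The 3 groups were fitted together, and gates within a library were blocked by library. SE is the log2 fold change divided by the square root of F. DESeq2 1.42.0 was an alternative. Shares were tested by exact permutation over libraries (Python 3.11.15, numpy 2.4.6, scipy 1.17.1, pandas 2.3.3, scanpy 1.11.5, anndata 0.12.19, matplotlib 3.10.9). Intervals are exact binomial (Clopper-Pearson), and floors use 3 counts, for counting error only. On simulated data with 200 genes changed by a log2 fold of 2, edgeR recovered 56.5% for YAP7d against WT in members (2616 genes, 5.83% of calls false) and 47% for members against NK cells (1705 genes, 4.08% false).

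Members, gene lists and named genes were chosen with earlier results of these data known. Named genes were at most 10 rises and 10 falls per gate comparison (5 and 5 between groups) with an adjusted p below 0.05, at least 50 CPM and 1 direction in every library (no overlap between groups), plus a list named whatever its change, which held 22 tested genes against cells without Nkg7 and Ccl5 (4 higher, 0 lower) and 27 against NK cells (8 higher, 14 lower). The rule named no gene between groups. The ranges of Nkg7 and Ccl5 UMIs and the comparisons that use them were added after the data had been seen. Some genes are not reported here.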

Additional observations from a re-analysis of the deposited data

Results flagged for a closer look

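The check covered 37 quantities, which were levels of named genes, shares of members and the median Nkg7 and Ccl5 count. In 5 of them, all gene levels, a single library lay far from the other 3 of its group. All 5 were in YAP3d, the only group large enough for this check, and by the 95% critical value used, which assumes normally distributed values, chance flags about 1 in 20 groups; no chance rate was measured on these data. In members of YAP3d replicate 2, Gzma stood at 11655.7 CPM against 0 to 930 in the other YAP3d libraries, and Ccl3 at 1087.3 CPM against 0 to 141. In the same library Pdcd1 stood at 326 CPM against 0 to 24.5, and Tox at 326 CPM against 36.3 to 51.4. These 4 values come from the same 34 cells and are not independent. In YAP3d replicate 4, Lef1 stood at 364 CPM against 73.4 to 110.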

How the results depend on the processing

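No alternative brought a share comparison past its test: over 135 alternatives the lowest exact p was 0.1 and the lowest adjusted p 0.24, and 18 changed sign. For YAP7d minus WT as a share of all cells the signs turned to 0.0369 points with stricter cell filters (500 genes, 10% mitochondrial), 0.118 after thinning, 0.0359 with at least 5 UMIs, 0.00641 with the strict gate and 0.0783 with at least 20 UMIs. For Cd8b1-positive T cells, YAP7d minus YAP3d turned to -1.35 (at least 5 UMIs) and -9.04 (at least 20), and YAP3d minus WT to -4.86 (strict gate). For T cells, YAP7d minus YAP3d turned to -0.762 (at least 20). For Cd8b1-positive T cells after thinning, YAP3d minus WT was 18.2 and YAP7d minus YAP3d 0.753 points, and the exact p of YAP7d minus WT was 0.3, as it was with at least 2 or 5 UMIs. Leaving out 1 library gave, for YAP7d minus WT, YAP3d minus WT and YAP7d minus YAP3d, -1.85 to 1.56, -1.02 to 2.4 and -1.56 to 0.609 points of all cells, 3.67 to 12, -1.84 to 6.76 and 2.52 to 9.66 of T cells, and 8.11 to 13.9, -6.07 to 7.68 and 3.34 to 17.1 of Cd8b1-positive T cells. WT replicates 1 and 2, YAP3d replicate 2 and YAP7d replicate 2 turned signs.

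Genes called between groups (0, 0 and 0 for YAP7d against WT, YAP3d against WT and YAP7d against YAP3d) became 9, 32 and 30 without a filter on low counts. After thinning, with at least 20 UMIs, or with a WT library left out, WT was 1 library, so no counts are given. Without YAP3d replicate 2, 1 gene was called for YAP7d against YAP3d. DESeq2 and a fit of only the 2 groups each called 1 gene, Gm10709, for YAP7d against WT, and a term for the Gm10709 division called 1, Gzma, for YAP7d against YAP3d. Correlations of same-numbered libraries ran from -0.16 to 0.08 (5 pairs), and those of other libraries from -0.28 to 0.31 (16 pairs). The values of the WT libraries mirrored each other, so these few pairs cannot decide whether replicate numbers pair the samples. With a replicate block the counts were 9, 38 and 105. Without a filter Gzma, Lag3, Tox and Ccl3 were called for YAP3d against WT and Gzma, Cxcr6, Lag3 and Ccl3 for YAP7d against YAP3d. After thinning the log2 fold change of Ccl3 for YAP7d against YAP3d was -3.32. Gzma for YAP7d against WT turned to 0.49 with the replicate block and ran from -1.50 to 1.59 with 1 library left out (1.59 without WT replicate 2). Gzmb turned to 0.12 for YAP7d against WT and Gzma to -0.06 for YAP3d against WT with the Gm10709 term, and Gzmb to 0.26 for YAP7d against YAP3d with at least 10 members per library.

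Against cells without Nkg7 and Ccl5, the 32 calls became 220 without a filter, 132 after thinning, 68 with the strict gate, 7 without the library block, and 41 to 212 with 1 library left out (212 without YAP7d replicate 3). Dapl1 turned to -0.51 after thinning, and at least 10 cells per set could not be run. Against NK cells the 424 calls became 656 without a filter, 223 after thinning, 160 with at least 20 UMIs and 350 to 442 with 1 library left out. The cause of these changes was not tested. Of 684 alternatives for genes named in the gate comparisons, 653 kept their direction and call. Only genes called in the main fit were counted, and the alternatives reuse largely the same cells, so this count is in part set by that choice. Libraries with 4 or 5 members limit every value of WT replicate 1 and YAP3d replicates 1 and 3.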
